A study of Rattus norvegicus with 238 samples.

Results

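The 9 genes Mobp, Mal, Mbp, Mog, Mag, Cnp, Cldn11, Opalin and Ermn encode proteins of the myelin sheath and were taken by symbol from the 21611 named genes among the 32545 genes counted in rat medial prefrontal cortex. All 9 symbols matched 1 Ensembl gene each in the 3 count tables, one table per age. RNA was sequenced from Sprague-Dawley rats exposed before birth to growth restriction (FR) or to control conditions with ad libitum feeding (AdLib), collected 30 minutes after an injection of saline or insulin, on the day of birth (postnatal day 0, P0), at day 21 (P21) or as adults (day 90). With both sexes these factors made 24 groups and 238 libraries, 10 per group except 9 in P0 male AdLib saline and in adult male FR insulin. No genotype or transgene differs between the groups, and the controls also received an injection. The libraries held 4649382 to 9714184 counts at P0, 5117722 to 9408550 at P21 and 5456940 to 13044595 in adults. In 3 libraries (replicate 6 of P0 female AdLib saline, and replicate 1 of both adult male FR insulin and adult female FR saline) the Y-linked genes went against the labelled sex. Calls of members did not change without these libraries.

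Myelin is the membrane that oligodendrocytes wrap around axons in spiral layers. In the rodent forebrain it is laid down mostly after birth, and cortical grey matter myelinates late. Oligodendrocyte precursors exit the cell cycle, switch on myelin genes under transcription factors such as SOX10 and MYRF, and then supply large amounts of lipid and cholesterol to the growing sheath. Mbp encodes myelin basic protein, which compacts the cytoplasmic faces of the membrane, and Mobp encodes another small basic protein of the same faces. Mal encodes a raft proteolipid of membrane trafficking. Cnp encodes the phosphodiesterase that keeps cytoplasmic channels through the sheath open. Mag is the adhesion molecule that faces the axon, and Mog is an immunoglobulin-type protein on the outermost surface. Cldn11 is the claudin that seals adjacent layers of the sheath by tight junctions, and it is also made in the arachnoid layer of the meninges. Opalin is a membrane glycoprotein of oligodendrocytes, and Ermn (ermin) is a cytoskeletal protein of mature oligodendrocytes.

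The genes lie on 7 chromosomes in the deposited tables: Mag and Opalin on chromosome 1, Cldn11 on 2, Mal and Ermn on 3, Mobp on 8, Cnp on 10, Mbp on 18 and Mog on 20. RefSeq promoter windows were found for 7 of the 9 genes, with 8 windows in all because Mbp has a pair of them. Since the genes moved together between libraries, the 250 bases before the start were searched on both strands for ACAAAG, a core bound by SOX proteins whose reverse complement reads CTTTGT. They were also searched for CTGGCAC, a form of the core bound by MYRF, and for another form of that core, CTGGTAC. The Mobp window held 8 copies of ACAAAG, each written as CTTTGT on the strand of the gene. Among 33469 RefSeq windows of that length, 16.3% held at least 1 copy, 1.84% at least 2, and 2 windows at least 8. Opalin held 2 copies, and Mag, Cnp and 1 of the Mbp windows held 1. The sequences of Mobp (chr8:128746982-128747231, plus strand, GRCr8) and Opalin (chr1:249858191-249858440, minus strand, GRCr8), from RefSeq, are shown 5′ to 3′ with these copies in capitals because they held the most.
Mobp: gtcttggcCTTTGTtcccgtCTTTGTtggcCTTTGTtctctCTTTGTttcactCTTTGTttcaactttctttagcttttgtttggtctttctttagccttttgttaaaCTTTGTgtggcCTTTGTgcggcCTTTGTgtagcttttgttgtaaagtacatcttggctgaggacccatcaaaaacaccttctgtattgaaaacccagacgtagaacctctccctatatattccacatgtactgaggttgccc
Opalin: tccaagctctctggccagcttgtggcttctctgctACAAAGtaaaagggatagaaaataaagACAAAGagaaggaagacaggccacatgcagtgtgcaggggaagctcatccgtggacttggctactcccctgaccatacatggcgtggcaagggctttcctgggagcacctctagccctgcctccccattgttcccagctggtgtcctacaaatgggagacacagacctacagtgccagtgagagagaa

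CTGGCAC was present once each in the windows of Mag, Cnp, Mal and Opalin, against 3.78% of all RefSeq windows, and CTGGTAC once in that of Cldn11, against 1.78%. The windows of Mag (chr1:95291045-95291294, minus strand), Cnp (chr10:86011254-86011503, plus strand) and Mal (chr3:135341424-135341673, minus strand), all GRCr8, are shown with the match to CTGGCAC in capitals (in Mal its reverse complement, which reads GTGCCAG on the strand of the gene), to let the surrounding bases be compared. These are matches of letters in a window, with no measurement of binding.
Mag: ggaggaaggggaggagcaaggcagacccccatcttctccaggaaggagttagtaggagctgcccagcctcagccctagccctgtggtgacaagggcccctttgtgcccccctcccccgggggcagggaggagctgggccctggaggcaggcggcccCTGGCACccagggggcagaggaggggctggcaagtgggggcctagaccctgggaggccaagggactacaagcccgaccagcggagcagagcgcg
Cnp: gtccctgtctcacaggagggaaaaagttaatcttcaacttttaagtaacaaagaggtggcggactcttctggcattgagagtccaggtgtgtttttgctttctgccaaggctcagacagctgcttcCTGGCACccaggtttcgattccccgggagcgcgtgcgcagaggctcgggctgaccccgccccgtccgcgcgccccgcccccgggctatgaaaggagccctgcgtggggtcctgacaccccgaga
Mal: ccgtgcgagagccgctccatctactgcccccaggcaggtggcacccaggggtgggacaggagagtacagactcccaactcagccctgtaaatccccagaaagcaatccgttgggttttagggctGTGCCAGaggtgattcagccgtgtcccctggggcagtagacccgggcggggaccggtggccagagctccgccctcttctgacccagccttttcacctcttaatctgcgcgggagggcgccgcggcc

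Of the 9 genes, 8 rose from P0 to P21, where 43.9% of 14866 genes tested were called higher, and 7 fell from P21 to adulthood, where 30.9% were called lower. Mobp, Mal and Opalin, 3 of the 8, failed the filter on low counts within P0 and entered the age test through the later ages, so their differences were bound to be large. Among the 6 genes that passed the filter at every age, Mbp, Mag, Cnp, Cldn11 and Ermn rose at the first step, and Mbp, Mag, Cnp, Cldn11 and Mog fell at the second. For most of the 9 the mean at P21 was the highest of the 3 ages. Mobp, Mal and Opalin went from almost no reads at birth to medians of 96.7, 67.6 and 15.6 CPM at P21 (CPM is the gene's reads scaled to a fixed library total, here with TMM factors over all libraries). Mog did not follow: its level at P0 was close to that at P21. Ermn differed in the other direction late, and was higher in adults than at P21. The age tests used the 59 AdLib saline libraries (19 at P0, 20 at P21, 20 adult), and because each age has its own count table, age and table cannot be told apart. In bulk tissue, fewer oligodendrocytes and less RNA per oligodendrocyte cannot be told apart either.

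Mbp and Mobp, the basic proteins of the cytoplasmic faces, rose at the first step and fell at the second. Mbp was 17.4 to 43.3 CPM at P0 (median 28.3), 265 to 3023 CPM at P21 (median 899) and 280 to 788 CPM in adults (median 434). Every one of the 80 P21 libraries was above every P0 library, whereas P21 and adult libraries overlapped. In AdLib saline libraries the Mbp means were 28.3 ± 4.14 (SD, n = 19), 924 ± 417 (SD, n = 20) and 441 ± 124 CPM (SD, n = 20). The log2 fold change from P0 to P21 was 5.02 ± 0.17 (SE; edgeR quasi-likelihood test, adjusted p = 4.02e-34) and from P21 to adult -1.07 ± 0.14 (adjusted p = 1.60e-09). Mobp had 20 reads in all over the 79 P0 libraries and was at 0 in 62 of them, which in the shallowest P0 library allows up to 0.645 CPM (3 counts, counting error only). At P21 it ranged from 20.1 to 364 CPM (median 96.7) and in adults from 29.4 to 103 CPM (median 50.3). Pooled over AdLib saline libraries, 5 Mobp reads at P0 stood against 13232 at P21, a ratio of 2516 with a 95% counting interval of 1078 to 7749. Such intervals, here and below, hold counting error only and leave out the spread between libraries. From P21 to adult Mobp fell by 0.90 ± 0.16 (SE) on the log2 scale (edgeR adjusted p = 2.49e-06).

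Mal behaved like Mobp at birth and less clearly later. Its 79 P0 libraries held 40 reads in all, with 52 libraries at 0. P21 libraries ran from 8.21 to 255 CPM (median 67.6), and adult libraries from 35.1 to 103 CPM (median 54.5), inside the P21 range. Pooled over AdLib saline libraries, the ratio of P21 to P0 was 917 (95% counting interval 498 to 1912, from 10 reads at P0). The later difference was small: -0.39 ± 0.17 (SE) on the log2 scale, edgeR adjusted p = 0.0389. The call was lost without P21 female AdLib saline replicate 7, the highest library of its group for Mal, where the value was -0.28 and the adjusted p 0.122. Leaving out a high P21 library was bound to make the fall smaller. It was also lost in males alone (-0.23, adjusted p = 0.443), in females alone (-0.55, adjusted p = 0.0606), in FR saline libraries (-0.33, adjusted p = 0.0876), with DESeq2 (adjusted p = 0.0743), without the filter (adjusted p = 0.0730) and with the library-name stem as a random block in limma (-0.28, adjusted p = 0.228). Over the alternatives run the adjusted p was 0.0406 to 0.443.

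Among the genes of non-compact and axon-facing myelin, Cnp had the narrowest ranges: 26.6 to 62.4 CPM at P0 (median 45.3), 172 to 623 CPM at P21 (median 269) and 100.1 to 193 CPM in adults (median 131). P0 and P21 did not overlap, and 78 of 79 adult libraries lay below the lowest P21 library. The log2 fold changes were 2.60 ± 0.10 (SE; edgeR adjusted p = 4.92e-32) and -0.99 ± 0.09 (adjusted p = 1.76e-14). Mag was 0.492 to 5.89 CPM at P0 (median 2.50), 28.4 to 289 CPM at P21 (median 93.9) and 16.98 to 54.7 CPM in adults (median 27.7). It rose by 5.32 ± 0.22 (SE) on the log2 scale (edgeR adjusted p = 1.05e-30) and then had the largest later change of the 9, at -1.70 ± 0.15 (adjusted p = 4.89e-15). No adult library reached the P21 median of Mag, and 43 of 79 lay below the lowest P21 library.

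Cldn11, the tight junction protein, was 0.800 to 39.7 CPM at P0 (median 4.72), 31.4 to 240 CPM at P21 (median 72.2) and 21.2 to 74.3 CPM in adults (median 34.5). Of the 80 P21 libraries, 76 were above the highest P0 library. The log2 fold changes were 3.47 ± 0.26 (SE; edgeR adjusted p = 7.52e-19) and -0.97 ± 0.20 (adjusted p = 3.71e-05). Opalin had 17 reads over the P0 libraries and was at 0 in 67 of 79. At P21 it ran from 1.42 to 52.3 CPM (median 15.6) and in adults from 9.51 to 41.4 CPM (median 18.0). The pooled AdLib saline ratio of P21 to P0 was 417 (95% counting interval 179 to 1287, from 5 reads at P0). The later difference of Opalin was not called (0.26 ± 0.16 (SE), edgeR adjusted p = 0.137), although 55 of 79 adult libraries were above the P21 median. Without P21 female AdLib saline replicate 7 it was 0.34 with an adjusted p of 0.0414. In males alone it was 0.56 (adjusted p = 0.0368) and in females alone -0.02 (adjusted p = 0.944), and the difference between the sexes was not tested.

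Ermn, a gene of mature oligodendrocytes, was the one member that rose at both steps. It was 0.155 to 2.68 CPM at P0 (median 1.11), 2.21 to 29.0 CPM at P21 (median 8.36) and 8.71 to 28.6 CPM in adults (median 15.8). All 79 adult libraries were above the P21 median. The log2 fold changes were 2.75 ± 0.23 (SE; edgeR adjusted p = 1.35e-16) and 0.85 ± 0.16 (adjusted p = 9.27e-06).

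Mog was the exception at the first step. It was 19.8 to 37.3 CPM at P0 (median 30.1), 13.9 to 85.8 CPM at P21 (median 29.8) and 13.2 to 33.9 CPM in adults (median 21.04). The P0 libraries were spread within the P21 range, with 17 of 80 P21 libraries above the highest and 7 below the lowest P0 library. The log2 difference from P0 to P21 was 0.04 ± 0.11 (SE; edgeR adjusted p = 0.734), and the pooled ratio was 1.03 (95% counting interval 0.983 to 1.07, from 3961 and 4279 reads). That interval leaves out the spread between libraries, which the SE of the log2 difference includes. The later fall was called (-0.50 ± 0.11 (SE), adjusted p = 8.25e-05), but not in males alone (-0.33, adjusted p = 0.0768). In the RefSeq annotation of GRCr8, 4 of the 9 genes overlap another gene: Mal, Mbp and Mag overlap long non-coding RNA genes (Mag a pair of them), and Mog overlaps the protein-coding zinc finger gene Zfp57. Zfp57 itself was 45.9 ± 5.14 CPM at P0 (SD, n = 79), 15.7 ± 1.89 at P21 (SD, n = 80) and 12.9 ± 1.99 in adults (SD, n = 79). The Pearson correlation of Mog and Zfp57 within groups was 0.63 over P0 libraries, 0.40 over P21 libraries and 0.13 over adult libraries, given as a description. How reads in these overlaps were assigned is not given in the sources used here, and their part in the levels of the 4 genes was not tested.

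**Figure D1:**
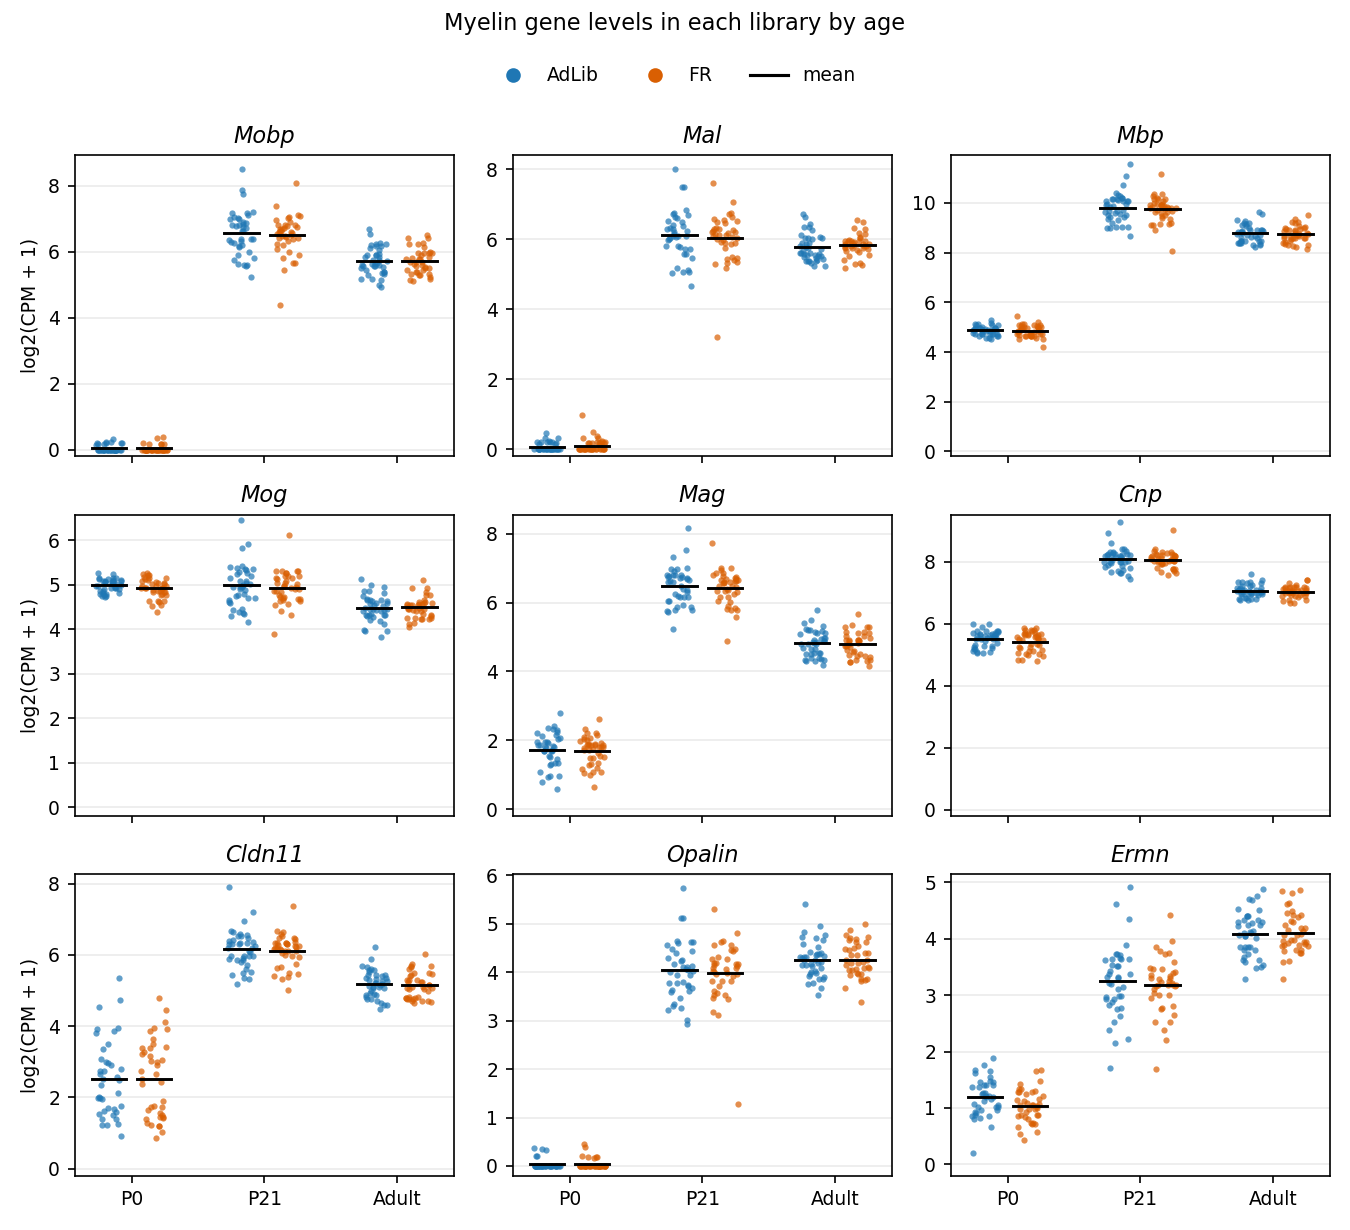
Level of each myelin gene, as log2(CPM + 1), in the 79 P0, 80 P21 and 79 adult libraries; each point is 1 library, AdLib in blue and FR in orange, and black bars are means. Mobp, Mal and Opalin lie near 0 at P0, most genes are highest at P21, Ermn is highest in adults and Mog is alike at P0 and P21.

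Against all genes, these calls had a high background. From P0 to P21, 88.2% of 14866 genes tested were called, 43.9% higher and 44.3% lower, with a median log2 fold change near 0, and the 9 genes had 8 called higher and none lower. Their median of 5.02 holds the 3 genes that failed the P0 filter, and it was 3.11 over the other 6. From P21 to adult, 61.8% of genes were called, 30.9% in each direction, and 1 myelin gene was called higher (Ermn) and 7 lower, with a median of -0.90, or -0.98 over those 6. Markers of other cell types also rose from P0 to P21 in that fit. All 7 microglial genes were called higher (median 2.85, Tmem119 at 5.14), as were 6 of 7 astrocyte genes (median 3.89 over the 7, with the glutamate transporter Slc1a2 at 5.06) and 6 of 6 genes of neurons in general (median 2.43, with the vesicular glutamate transporter Slc17a7 at 5.18). The median summed level over all libraries went from 36.4 CPM at P0 to 248 at P21 for the microglial list, from 399.6 to 2949 for the astrocyte list and from 737 to 6233 for the neuronal list. For the 9 myelin genes it went from 111 to 1558 CPM. Without the P0 library of discordant sex the same numbers of members were called, and their median rise was 5.02.

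Other genes of the oligodendrocyte lineage were taken from lists that do not contain the members. Counts of these lists stand against 43.9% of all genes called higher at the first step and 30.9% called lower at the second. Of 12 tested genes of precursors and early lineage, 11 rose from P0 to P21 and 1 fell, with a median of 1.12 on the log2 scale, and then 11 fell. The largest rises were those of Enpp6, a choline phosphodiesterase of newly formed oligodendrocytes (3.16 ± 0.22), Bcas1, a marker of the same stage (2.48 ± 0.07), and Tcf7l2, a transcription factor of differentiation (1.77 ± 0.19). Enpp6 and Bcas1 also had the largest later falls (-2.19 ± 0.19 and -1.06 ± 0.06), followed by Itpr2 (-0.74 ± 0.06). Pdgfra, the growth factor receptor of precursors, named here after its values were seen, rose by 0.20 ± 0.05 at the first step and was not called at the second (-0.07 ± 0.05). All of these values are log2 fold changes with SE from the same edgeR fit.

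Of 5 maturation factors, 4 rose to P21 and 1 fell, and then 4 fell. Nkx6-2, a homeodomain factor, rose by 5.08 ± 0.34 (SE) on the log2 scale, Zfp488 by 1.29 ± 0.14 and Myrf, which activates myelin genes, by 1.16 ± 0.10. The later changes were -1.19 ± 0.13 for Zfp488, -0.93 ± 0.10 for Myrf and -0.66 ± 0.19 for Nkx6-2. Of 25 tested other myelin and mature oligodendrocyte genes, 22 rose to P21 and 3 fell, with a median of 2.37. Fa2h, which hydroxylates myelin lipids, rose by 6.44 ± 0.26 and the kallikrein protease Klk6 by 6.54 ± 0.69. Klk6, Nkx6-2 and Fa2h averaged 1.22, 1.61 and 4.19 CPM over all libraries, so their large folds rest on low levels. From P21 to adult 14 of the 25 fell and 8 rose. Ugt8, the enzyme of galactolipid synthesis, changed by -1.77 ± 0.12 and Fa2h by -1.43 ± 0.13, whereas Hapln2, a link protein at nodes of Ranvier, rose by 1.54 ± 0.21.

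The cholesterol synthesis genes did not share the rise: of 14 tested, 4 rose to P21 and 9 fell, with a median of -0.33 on the log2 scale. Lss (-0.76 ± 0.09), Fdft1 (-0.74 ± 0.06) and Dhcr7 (-0.70 ± 0.05), which act at successive stages of sterol synthesis, had the largest changes. From P21 to adult 12 of 14 fell and 2 rose, with Lss at -0.54 ± 0.09 and Dhcr7 at -0.45 ± 0.05.

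At P21 the myelin genes also varied widely between libraries of the same group. The SD of log2(CPM + 1) around group means was 0.69 for Mal, 0.64 for Mobp, 0.60 for Opalin, 0.57 for Ermn, 0.54 for Mbp, 0.52 for Mag, 0.48 for Cldn11, 0.41 for Mog and 0.30 for Cnp, where the median of 14400 tested genes was 0.16. All but Cnp exceeded the SD of over 98.2% of those genes, and Cnp that of 87.4%. In adults the SDs ran from 0.19 for Cnp to 0.40 for Mobp against a median of 0.18. Cnp and Mog lay above 52.5% and 70.3% of genes, and the others above 91.1% (Mbp) to 96.8% (Mobp), so wide spread was not confined to P21. At P0 the median was 0.23, Mbp (0.22) and Mog (0.19) lay under it, and Cnp (0.29), Ermn (0.32) and Mag (0.46) above it. Cldn11 had an SD of 1.09 at P0, rank 20 of 14318 genes. Without the library with the highest summed level in each P21 group, the SDs fell to between 0.22 (Cnp) and 0.60 (Mal), and 7 of the 9 members still exceeded the SD of more than 97.3% of genes. These are descriptions with no test.

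**Figure D2:**
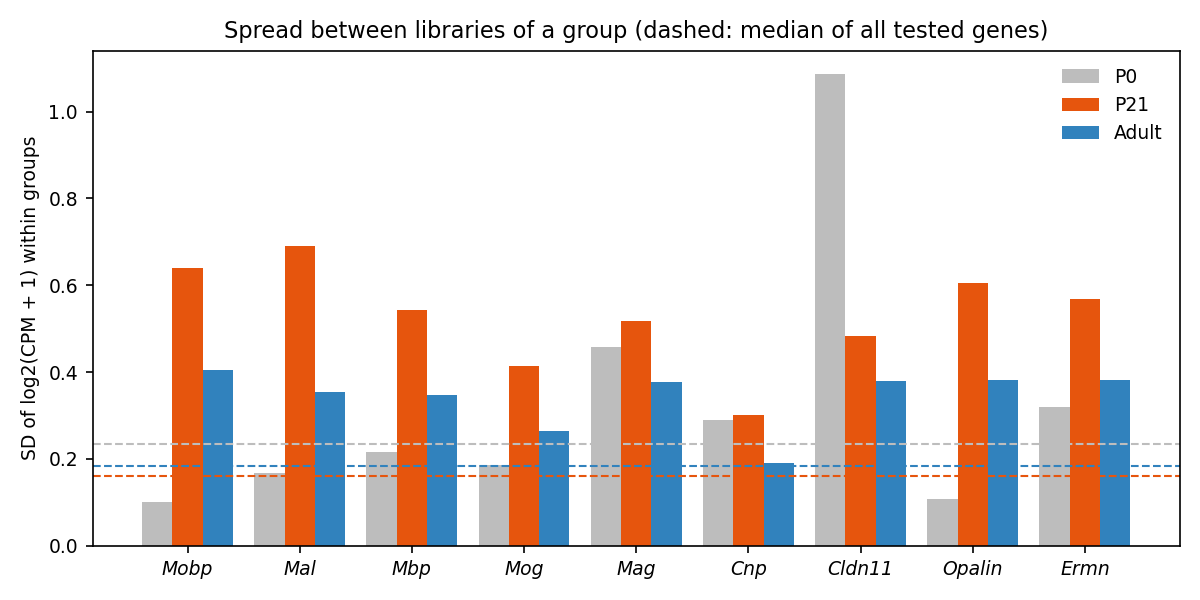
SD of log2(CPM + 1) within groups for each myelin gene at P0 (grey), P21 (orange) and in adults (blue); dashed lines are the medians over all genes tested at each age. The P21 bars of Mal and Mobp are 0.69 and 0.64 against a median of 0.16, and Cldn11 stands out at P0 with 1.09.

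The same P21 libraries were high or low for every member. The 9 summed CPM values, most of which is Mbp, ran from 559 to 4961 with a median of 1558. Male AdLib insulin replicate 7 had the highest level of all 9 genes, with 3023 CPM of Mbp, 364 of Mobp and 255 of Mal. Male FR saline replicate 3 (sum 3747), female AdLib saline replicate 7 (sum 3497) and male AdLib insulin replicate 3 (sum 2855) followed, and each of the 9 genes was among the 4 highest of 80 libraries in them. Male AdLib insulin replicate 7, male FR saline replicate 3 and female AdLib saline replicate 7 stood apart at the high end of their own groups for 6 or more of the 9 genes. The criterion was Dixon's, on CPM without logs, which favours flags at the high end. The P21 comparisons were therefore repeated without each of these 3 libraries and without all 3, a choice made after seeing the data. All 3 were high for the members, so leaving one out was bound to lower the mean of its group. No low library was left out in this way, so these repeats show the dependence on single libraries in 1 direction only. Male FR saline replicate 10 was lowest for 8 of the 9 genes, with 265 CPM of Mbp, 8.21 of Mal (52 reads) and 1.42 of Opalin (9 reads). Male AdLib saline replicate 1 came next, with all 9 genes among the 5 lowest libraries. The 4 highest libraries came from both diets, both injections and both sexes, and the lowest 4 were all male saline libraries. The libraries at both ends had 5780650 to 8353500 counts, within the range of the other P21 libraries.

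The library names carry a stem shared by several libraries, whose meaning is not given in the sources used here. At P21 the share of within-group variance between the 18 stems was from -0.11 for Mog to 0.02 for Mag (analysis of variance estimates, which can be negative), where the median of all genes was 0.071. At P0 it was 0.72 for Cnp, above 99.1% of genes, with a median of 0.32, and in adults it reached 0.29 for Cldn11.

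Pairs of members followed each other closely at P21. Over the 80 P21 libraries, with group means removed, Pearson r of the 36 pairs was 0.86 to 0.98 and Spearman rho 0.83 to 0.97. In each pair the permutation p within groups was 1e-05, the smallest that 100000 permutations can give, or 3.89e-05 after Benjamini-Hochberg adjustment over 513 relations. With the 2 libraries farthest from the median left out, r was 0.86 to 0.98. In adults r was 0.44 to 0.96 (rho 0.39 to 0.95, largest adjusted permutation p = 0.000649), lowest for Cnp with Cldn11, and 0.34 to 0.95 without 2 libraries. At P0 Mobp, Mal and Opalin were at 0 in 62, 52 and 67 of 79 libraries, so pairs with them cannot be read there. Over the 15 pairs of the other 6 genes, P0 r was -0.17 to 0.28 (rho -0.20 to 0.23). Of these pairs, Mbp with Mog had an adjusted permutation p under 0.05 (r = 0.28, adjusted permutation p = 0.0429, and 0.26 without 2 libraries), but not by rank (rho 0.18, adjusted permutation p = 0.198). The permutations took no account of library-name stems, whose share of the P0 variance was 0.28 for Mbp and 0.29 for Mog. Mog, whose mean was not called different between P0 and P21, was among the covarying genes at P21 (r of 0.88 to 0.94 with the others).

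Among 14391 other genes tested at P21, those much like the members included Ugt8 (r = 0.98), the tetraspanin Tspan2 (0.93), the protease Adamts4 (0.91) and the actin regulator Gsn (0.89). Here r is the Pearson correlation over 80 libraries with the mean deviation of the 9 genes, a description. Genes of neuronal lists also ranked high: Ppp1r1b of the striatal list (0.82, rank 16) and Foxp2 of the deep layer list (0.77, rank 29). These 2 were named after the ranking was seen. Most opposite were the transcription factor Mef2c (-0.71), the synaptotagmin Syt17 (-0.69) and the copine Cpne4 (-0.68).

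Marker lists of other cells moved with the myelin genes between P21 libraries. For upper layer cortical neurons, whose 6 of 6 genes summed to 469 to 696 CPM at P21, r with the 9 genes was -0.72 to -0.58 (rho -0.74 to -0.58, and -0.65 to -0.52 without 2 libraries), with each adjusted permutation p at 3.89e-05. For deep layer neurons (6 of 6 genes, 692 to 1078 CPM) r was 0.30 to 0.43 (rho 0.43 to 0.53, largest adjusted permutation p = 0.0433). It was 0.49 to 0.59 without 2 libraries. For striatal neurons (8 of 8 genes, 191 to 284 CPM) r was 0.43 to 0.52 (rho 0.45 to 0.53, largest adjusted permutation p = 0.000807). Male FR saline replicate 10, the lowest library, had the highest upper layer sum (696 CPM) and the lowest deep layer sum (692 CPM). Male AdLib insulin replicate 7, the highest, had a deep layer sum of 710 CPM and an upper layer sum of 560 CPM. The part of the cortical layers in the spread of the myelin genes was not tested.

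In adults the correlations had the same directions for upper layer (r of -0.56 to -0.41, largest adjusted permutation p = 0.00147) and deep layer genes (0.29 to 0.57, largest adjusted permutation p = 0.0270). For the striatal list adult r was -0.03 to 0.15, and none of the 9 had an adjusted permutation p under 0.05. Astrocyte markers (7 of 7 genes) had r of -0.55 to -0.26 in adults, with 8 of 9 members at an adjusted permutation p under 0.05, and -0.33 to -0.17 at P21, with 4 of 9. Their P21 rho was -0.44 to -0.34, with each adjusted permutation p at 0.0115 or less, and r without 2 libraries was -0.47 to -0.33. Endothelial markers (4 of 6 genes found) had r of -0.33 to -0.26 at P21, where 9 of 9 members passed, and -0.51 to -0.21 in adults, where 8 passed. Without 2 libraries the P21 values were -0.24 to -0.18, and by rank not all 9 passed (rho -0.33 to -0.23, largest adjusted permutation p = 0.0820). The meningeal and fibroblast list had r of -0.36 to -0.16 at P21 (6 of 9 passed) and -0.40 to 0.20 in adults (8 of 9 passed, all but Cldn11). In adults 8 members passed for choroid plexus markers (r of -0.43 to -0.12) and 7 for microglial markers (-0.42 to -0.15), and at P21 none did for either. The share of all genes that would pass against any of these marker lists was not computed, so the counts of members have no background. The part of these cell types in the spread of the members was not tested. Within the lineage, cholesterol synthesis genes had r of 0.68 to 0.77 with the members at P21 (rho 0.66 to 0.77, adjusted permutation p = 3.89e-05 for each), although their mean had fallen since P0. In adults r was -0.07 to 0.28, with 1 of 9 at an adjusted permutation p under 0.05. The precursor list had r of 0.02 to 0.34 at P21, with 1 of 9 members passing, and of the opposite sign in adults, -0.33 to -0.09, with 4 of 9. The precursor sum lay between 814 and 1214 CPM at P21. Maturation factors had r of 0.30 to 0.48 at P21 (8 of 9 passing) and 0.31 to 0.47 in adults (9 of 9). By rank not all passed at either age: rho was 0.24 to 0.34 at P21 and 0.22 to 0.41 in adults. The largest adjusted permutation p by rank were 0.0711 and 0.105.

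**Figure D3:**
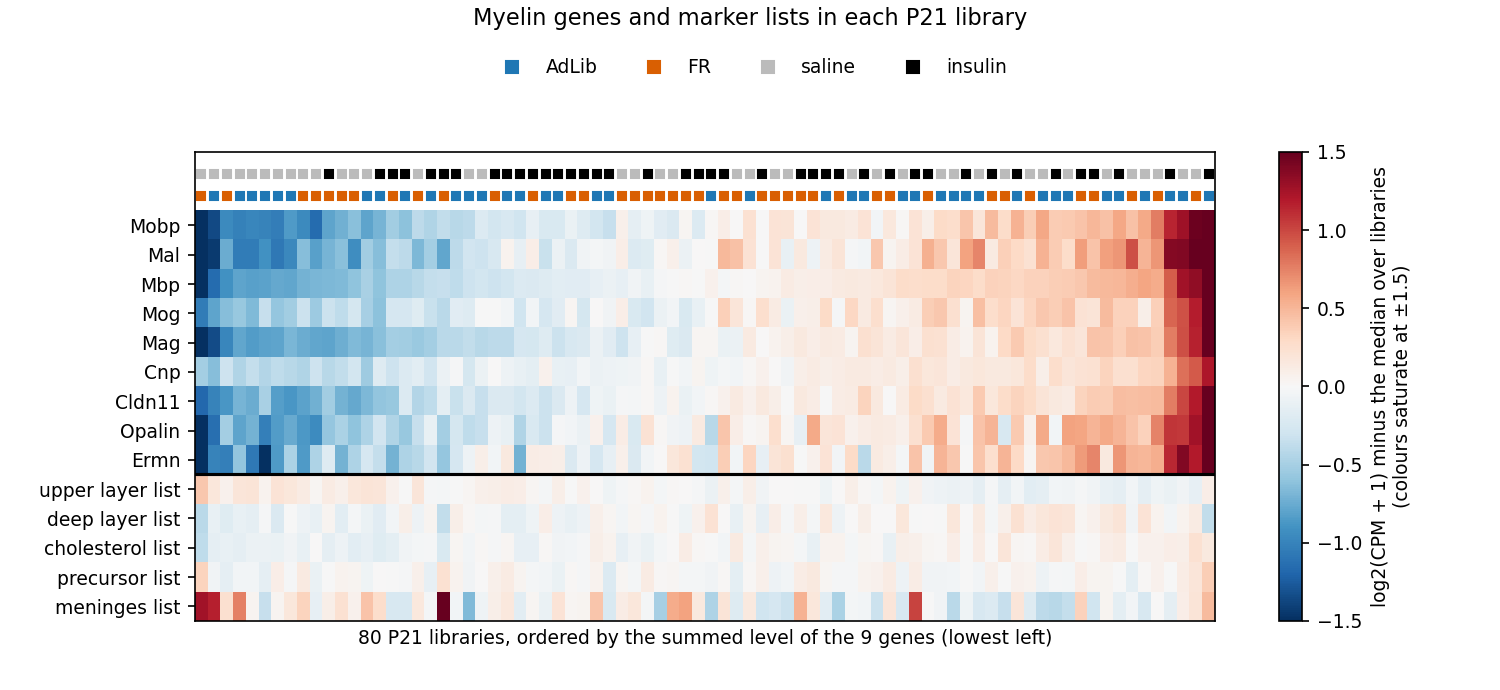
Deviation of each myelin gene (top 9 rows) and of 5 marker list sums (lower rows) from the median over the 80 P21 libraries, on the log2(CPM + 1) scale; columns are libraries ordered by the summed level of the 9 genes, squares above give diet and injection, and colours saturate at ±1.5. The 9 genes go from low to high together, and the upper layer list runs the other way.

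At P0 Cldn11 followed the meningeal and fibroblast list. Pearson r over 79 libraries was 0.92 and Spearman rho 0.90 (permutation p = 1e-05, the smallest possible, adjusted p = 3.89e-05), and r was 0.90 without 2 libraries. The list's 6 genes were all found and summed to 11.7 to 288 CPM at P0, 67.5 to 446 CPM at P21 and 33.3 to 164 CPM in adults. One of the 6, Col1a2, was close to 0 throughout (1 read at P0, 0 at P21, 3 in adults), whereas Col1a1 averaged 20.7 CPM at P0. The 4 P0 libraries with the highest list sum, 231 to 288 CPM, were male FR saline replicate 7, male FR insulin replicate 1, male AdLib insulin replicate 3 and female AdLib saline replicate 5, where Cldn11 was 20.8, 26.9, 39.7 and 25.7 CPM. At P21 r was -0.22 (adjusted permutation p = 0.0996) and in adults 0.20 (adjusted permutation p = 0.148). The part of meningeal RNA in the P0 level of Cldn11 was not tested.

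**Figure D4:**
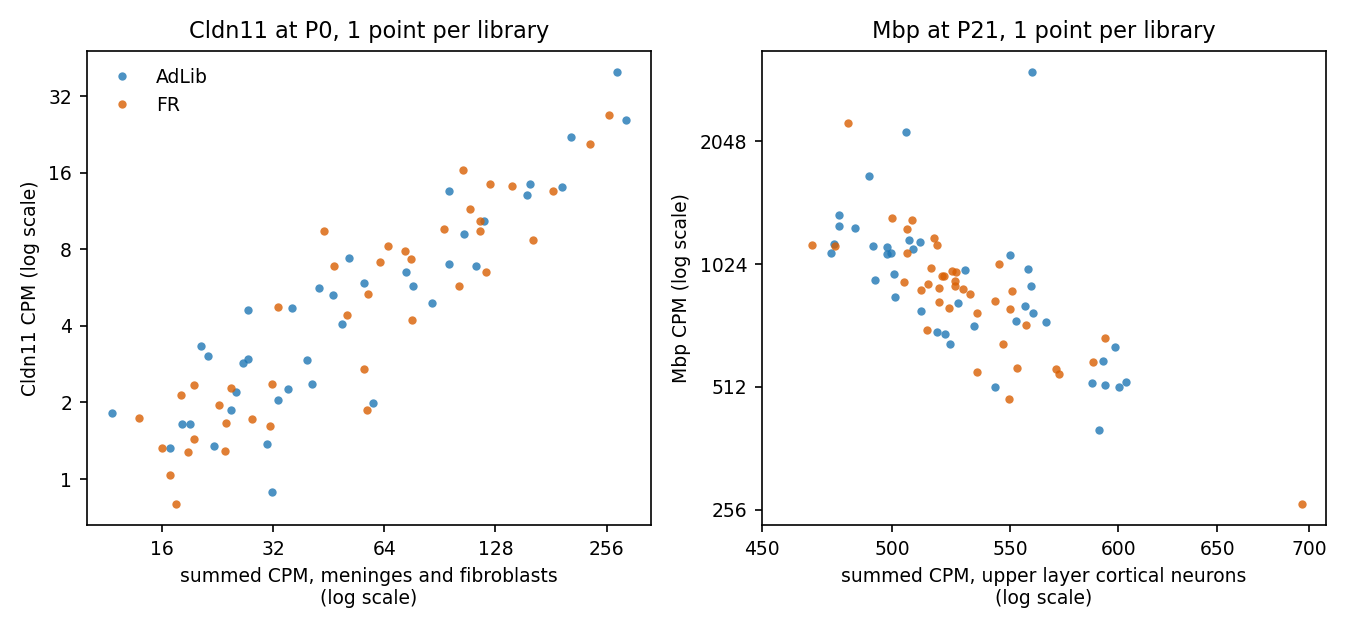
Left, Cldn11 CPM against the summed CPM of the meningeal and fibroblast list in the 79 P0 libraries; right, Mbp CPM against the summed CPM of the upper layer neuron list in the 80 P21 libraries; log axes, 1 point per library, AdLib in blue and FR in orange. Cldn11 rises with the list (r = 0.92 on log values within groups), and Mbp goes down as the upper layer sum goes up (r = -0.70).

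Neither diet nor insulin gave a called change of any member at any age. At P0 6 of the 9 genes passed the filter on low counts (Mobp, Mal and Opalin did not), and in P21 and adult libraries all 9 did. FR minus AdLib, averaged over sex and injection, was between -0.29 and -0.01 on the log2 scale at P0. None of the 6 was called by edgeR against 1.98% of 14318 genes, and 1 had an unadjusted p under 0.05, where 16.8% of all genes did. This was Ermn (-0.29 ± 0.13 (SE), p = 0.0307, adjusted p = 0.235). At P21 all 9 values were negative (-0.13 to -0.05), none called against 0.0417% of genes and none with an unadjusted p under 0.05. Ermn again had the smallest p (-0.13 ± 0.14 (SE), edgeR adjusted p = 0.895). The P21 median of -0.08 went to -0.02 without male AdLib insulin replicate 7, where 1 gene changed sign, to -0.15 without male FR saline replicate 3 and to -0.05 without female AdLib saline replicate 7 or without the 3 libraries. In adults they ran from -0.05 to 0.04, none called against 0.356% of genes and none with an unadjusted p under 0.05, led by Cnp (-0.04 ± 0.04 (SE), edgeR adjusted p = 0.756). DESeq2 also called no member in these comparisons. Without the discordant libraries, 212 in place of 283 genes were called at P0 and 65 in place of 54 in adults, again with no member. With the library-name stem as a random block in limma, 0 genes were called at P0, and 964 in place of 2403 had an unadjusted p under 0.05.

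In saline libraries taken by sex, FR minus AdLib gave no called member and no unadjusted p under 0.05 at any age. At P0 Ermn in males was 0.945 ± 0.306 CPM in FR and 1.37 ± 0.566 in AdLib (SD, n = 10 and 9), ranges 0.454 to 1.52 and 0.579 to 2.38, which overlapped. Its log2 difference was -0.52 ± 0.27 (SE; edgeR adjusted p = 0.669, background 0%). In P0 females the smallest p was that of Cnp (-0.14 ± 0.13, adjusted p = 0.999, background 0.0279%). At P21 it was Cnp in males (0.09 ± 0.14) and Opalin in females (-0.19 ± 0.27), and in adults Cnp in males (-0.07 ± 0.08) and Cldn11 in females (0.11 ± 0.18), with edgeR adjusted p of 0.958 or more and backgrounds of 0%, 0%, 0% and 0.0330%. At P21 the values by sex changed when the highest library of a group was left out. In males the median went from 0.08 to -0.21 without FR saline replicate 3 (8 of 9 changed sign). Replicate 10 of that group, which had the lowest summed level at P21, was kept in. In females the median went from -0.06 to 0.08 without AdLib saline replicate 7 (7 of 9). The direction of both shifts was fixed by the choice of library. Without the discordant adult library the median difference in adult females went from -0.02 to -0.08, still with no call.

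In P21 AdLib males the members were higher after insulin than after saline on average, with no call. Cnp, the member with the smallest p, was 172 to 337 CPM (median 239) after saline and 233 to 623 CPM (median 284) after insulin, 10 libraries each, and the ranges overlapped. Mbp was 403 to 1350 CPM (median 733) and 653 to 3023 CPM (median 965), and Mal 24.4 to 113 CPM (median 54.9) and 51.2 to 255 CPM (median 73.9). All 9 log2 fold changes were positive, from 0.40 to 0.64 with a median of 0.55. Cnp was at 0.40 ± 0.14 (SE; p = 0.00565, edgeR adjusted p = 0.799). Of the 9, 8 had an unadjusted p under 0.05, where 6.19% of all genes did, and none passed the adjustment, as no gene did (0%). The 9 genes varied together between P21 libraries (r of 0.86 to 0.98), so the 8 are not separate observations. The count of 8 went to 1 with only the groups compared in the fit, 5 with the replicate block and 6 with the library-name stem as a block, with medians of 0.55, 0.48 and 0.48. Without male AdLib insulin replicate 7, the highest library for all 9 genes, the median was 0.28, with values from 0.24 to 0.35. None of the 9 then had an unadjusted p under 0.05. A smaller difference was bound to follow, as that library was in the higher group, and no low saline library was left out. The authors' deposited table for this contrast gives the same order of size, with a log2 fold change of 0.40 and a p of 0.00842 for Cnp, 0.57 for Mbp, and an FDR of 1 for each member.

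In P21 AdLib females the values lay from -0.28 to -0.12, with Mog first (-0.28 ± 0.20 (SE), edgeR adjusted p = 1, background 0%) and no unadjusted p under 0.05. Without saline replicate 7, the highest library of its group by the summed level, the median went from -0.17 to -0.02 and 3 of the 9 changed sign. The difference between the sexes, a contrast added after these values were seen, had a median of 0.77 over the 9 genes. It had an unadjusted p under 0.05 for 6 of them and an edgeR adjusted p of 0.933 for each, with no gene called (0%). As the genes vary together, the 6 are not separate observations. The median of this difference was 0.50 without male AdLib insulin replicate 7 and 0.58 without female AdLib saline replicate 7, with 2 unadjusted p under 0.05 in either case. With both of these and male FR saline replicate 3 left out it was 0.29, with none.

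After FR, insulin minus saline at P21 was 0.07 to 0.25 in males (Ermn 0.25 ± 0.28) and -0.23 to 0.11 in females (Mal -0.23 ± 0.30). Without saline replicate 3, the highest library of its group, the values in males were 0.24 to 0.55. Their median was then 0.44 in place of 0.13, with no unadjusted p under 0.05. With the 3 libraries that stood apart left out, insulin minus saline in FR males had 8 unadjusted p under 0.05 and a median of 0.45. The genes vary together, so these are not 8 separate observations, and none was called (smallest edgeR adjusted p = 0.994). In AdLib males that fit gave a median of 0.28 and 1 unadjusted p under 0.05. The diet by insulin interaction was -0.50 to -0.24 in males (Cnp -0.32 ± 0.20, SE) and -0.06 to 0.37 in females (Opalin 0.37 ± 0.38). Its median in males, -0.40, went to -0.15 without AdLib insulin replicate 7, to -0.14 without FR saline replicate 3 and to 0.14 without the 3 libraries, where 8 of 9 genes had changed sign. In females the median went from 0.08 to -0.10 without AdLib saline replicate 7. In these 4 comparisons with every library in, no member was called, none had an unadjusted p under 0.05, the edgeR adjusted p of those named was at least 0.915, and the background was 0%. Averaged over sex and diet, insulin minus saline at P21 was 0.03 to 0.15, with Cnp at 0.08 ± 0.07 (SE; edgeR adjusted p = 1, background 0%). That median of 0.09 went to 0.03 without male AdLib insulin replicate 7, where Mog changed sign, to 0.17 without male FR saline replicate 3, and to 0.14 without the 3 libraries.

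At P0 and in adults no member was called after insulin either. Averaged at P0, Mag had the smallest p (0.30 ± 0.14 (SE), p = 0.0358, edgeR adjusted p = 1). It was 1 of 6 members with an unadjusted p under 0.05, where 0.866% of all genes had one. No member was called, and the background of called genes was 0%. Mag was 2.00 ± 0.789 CPM in P0 AdLib females after saline and 2.77 ± 1.21 after insulin (SD, n = 10 each), with overlapping ranges. By sex and diet at P0, the members named by smallest p were Cnp in AdLib males (0.11 ± 0.13), Mag in FR males (0.46 ± 0.27), Mag in AdLib females (0.49 ± 0.28) and Mog in FR females (-0.09 ± 0.08). Their edgeR adjusted p was 1 and the background 0%, except 0.0279% in AdLib females. The interaction at P0 was led by Mog in males (-0.13 ± 0.12) and Mag in females (-0.43 ± 0.40), with the same adjusted p and background 0%. In adults the averaged insulin difference lay between -0.08 and 0.05 (Mog -0.08 ± 0.06, edgeR adjusted p = 0.835, background 0%). By sex and diet it was led by Mog in males, at -0.17 ± 0.12 in AdLib and -0.16 ± 0.12 in FR, both at a background of 0%. In females it was led by Mag in AdLib (0.10 ± 0.17, background 0%) and Ermn in FR (0.24 ± 0.18, background 0.0264%). The adult interaction was led by Mbp in males (-0.26 ± 0.23) and Ermn in females (0.16 ± 0.25), background 0%. No adult edgeR adjusted p of a member in these insulin comparisons was under 0.835, no unadjusted p was under 0.05, and DESeq2 called no member either. The authors' deposited tables for the 18 single-sex contrasts give an FDR of 1 for every member.

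**Figure D5:**
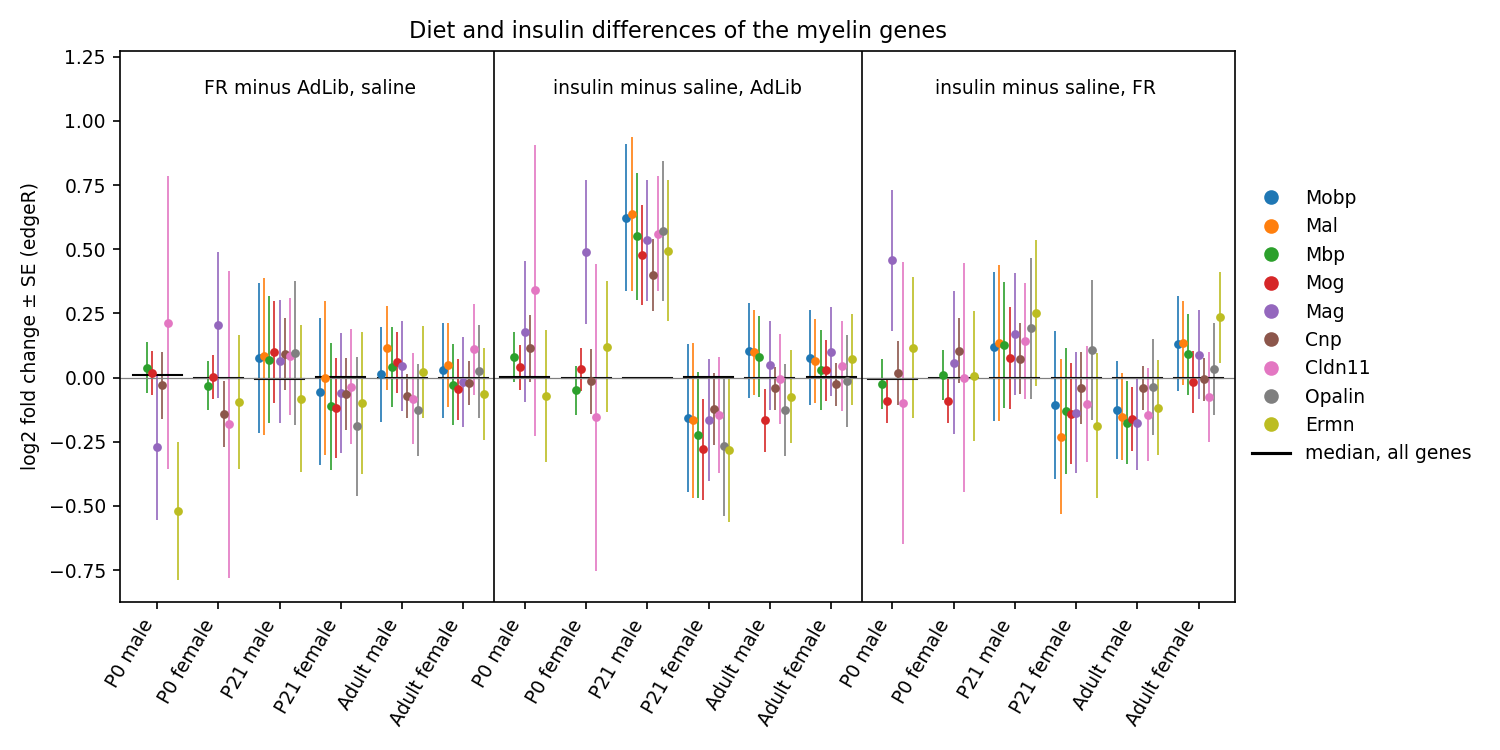
Log2 fold changes with SE bars (edgeR) of the myelin genes that passed the filter, in 18 single-sex comparisons: FR minus AdLib in saline, insulin minus saline in AdLib, and insulin minus saline in FR; black lines are the medians of all genes. In P21 AdLib males all 9 genes lie between 0.40 and 0.64, and none passed adjustment.

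Precision sets what these comparisons could show. The SE of a member's log2 difference in the single-sex comparisons was 0.14 to 0.31 at P21, 0.08 to 0.19 in adults and 0.08 to 0.60 at P0, the largest for Cldn11. Differences of the size of these errors were not detectable with 10 libraries a group. Values for males minus females, averaged over diet and injection, were led by Cldn11 at P0 (0.74 ± 0.29 (SE), p = 0.0126, edgeR adjusted p = 0.717), with Cnp also at an unadjusted p under 0.05 (0.14 ± 0.06, p = 0.0337). Cldn11 and Cnp were 2 of 6 members with such a p, where 5.38% of all genes had one. No member was called, against 0.0978% of genes. At P21 they lay between -0.03 and 0.07 (Ermn 0.07 ± 0.14, edgeR adjusted p = 0.983, background 0.118%; median -0.02, or 0.04 without female AdLib saline replicate 7 and -0.09 without the 3 libraries) and in adults between -0.07 and 0.11 (Cldn11 0.11 ± 0.09, edgeR adjusted p = 0.761, background 0.257%), with no unadjusted p under 0.05. The meningeal list that Cldn11 followed at P0 was given beside its correlation.

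The change with age itself did not differ detectably between FR and AdLib. For P0 to P21 the difference of the 2 changes was -0.03 to 0.31 on the log2 scale (Cnp 0.10 ± 0.13 (SE), edgeR adjusted p = 0.980), and for P21 to adult -0.06 to 0.08 (Cnp -0.06 ± 0.12 (SE), edgeR adjusted p = 1). No member was called, none had an unadjusted p under 0.05, and the background was 0% for both. Without the discordant libraries the median of the second difference went from 0.016 to -0.024. In FR saline libraries alone, the change of Mog from P0 to P21 was -0.01 with an edgeR adjusted p of 0.909.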

How the data were processed

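Total RNA from 238 samples was sequenced. Reads were aligned with STAR to Rnor_6.0, per the submitters' processing notes; the counting program, annotation and strand setting are not given in the sources used here. The deposited values are raw counts per gene, 1 table per age, and the authors' deposited comparison tables give log2 fold changes, log2 CPM, p-values and FDR. The labels give replicates only as biological samples, so p-values measure the spread between these samples. Genes passing filterByExpr were tested with edgeR 4.0.16 (quasi-likelihood, TMM; R 4.3.3) within each age over 8 groups, and across ages in saline libraries. P-values were Benjamini-Hochberg adjusted over all genes tested, with a threshold of 0.05. DESeq2 1.42.0, limma 3.58.1 (voom with the library-name stem as a random block), RLE factors, no filter, a replicate block, and fits on fewer libraries were alternatives. Levels are CPM with TMM factors over all libraries; SDs and correlations used log2(CPM + 1) with group means removed and 100000 permutations within groups. Libraries were called discordant by the summed Y-linked level, at 50 CPM. All 9 members were named for age and spread. Elsewhere the member with the smallest p was named, and of each list up to 3 genes with the largest fold. Other members were named beside these in places, such as Mbp and Mal for insulin in P21 AdLib males and Cnp for sex at P0. The members and lists were chosen with earlier results of these data known. The count models were tested on simulated data. Some genes that this rule names are not reported here.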

Additional observations from a re-analysis of the deposited data

Results flagged for a closer look

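In 35 of 192 checks of a member within a group, the highest or lowest library stood apart from the rest by Dixon's 95% criterion. The nominal rate of 5% holds for normally distributed values. The checks used CPM without logs, which favours flags at the high end, so the count cannot be read against 5%. Most flags were at the high end, and P21 male FR saline replicate 10, lowest for 8 of the 9 genes at P21, was not flagged. They came from 15 libraries, and members that vary together are not separate checks. P21 male FR saline replicate 3 was high for all 9 genes, with 270.3 CPM of Mobp (next 111.0), 192.6 of Mal, 2270 of Mbp, 68.6 of Mog, 210.4 of Mag, 511.0 of Cnp, 165.5 of Cldn11, 38.7 of Opalin and 20.4 of Ermn. P21 female AdLib saline replicate 7 was high for 6, with 235.7 CPM of Mobp, 178.5 of Mal, 2158 of Mbp, 478.2 of Cnp, 145.7 of Cldn11 and 23.6 of Ermn. P21 male AdLib insulin replicate 7 was high for 6, with 363.6 CPM of Mobp, 3023 of Mbp, 85.8 of Mog, 288.7 of Mag, 623.5 of Cnp and 240.4 of Cldn11. Ermn was also high in P21 male FR insulin replicate 6 (14.6 CPM).

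At P0, Cldn11 was high in female AdLib saline replicate 5 (25.7 CPM, next 5.89), male AdLib insulin replicate 3 (39.7), male FR insulin replicate 1 (26.9) and female AdLib insulin replicate 4 (14.4). The first 3 of these had the highest sums of the meningeal list, 288, 274 and 259 CPM. Single genes stood apart in P0 female FR insulin replicate 4 (Mbp, 43.3 CPM), P0 male AdLib saline replicate 9 (Mag, 5.89), P0 male FR insulin replicate 7 (Ermn, 2.15) and, as the lowest, P0 male FR insulin replicate 10 (Mog, 19.8). In adults these were female FR saline replicate 1 (Mal, 88.6 CPM), whose Y-linked genes went against its label, male FR saline replicate 6 (Mag 49.7, Cnp 167) and male AdLib saline replicate 9 (Cldn11 74.3, Opalin 41.4).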

How the results depend on the processing

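No member was called in any diet, insulin, sex or interaction comparison under the settings run, and 8 members were called in each age comparison with the replicate block. Same-numbered libraries correlated little (mean r 0.084 at P0, 0.034 at P21 and 0.022 in adults), so the numbers were not taken as a pairing. With the replicate block, genes called for FR averaged went from 283 to 520 at P0, 6 to 17 at P21 and 54 to 85 in adults. Genes called with the block were also 2 in place of 4 for insulin in AdLib P0 females, 0 in place of 5 for FR in saline adult females, 0 in place of 4 for insulin in FR adult females, and 1 in place of 0 for the diet difference in the P0 to P21 change. With the library-name stem as a block, FR averaged gave 0 genes in P0 and P21 libraries and 14 in adults, and no stem spans both diets. Male minus female at P0 gave 25 in place of 14 with it, and insulin in P21 AdLib males 1 in place of 0. FR in saline at P0 (4) and in adults (5), insulin in AdLib at P0 (4) and insulin in FR in adults (4), all in females, gave 0 genes with the stem block, without the discordant libraries, or with only the compared groups fitted. That last fit gave 1 gene for insulin in adult AdLib males. DESeq2 called 440 (P0), 20 (P21) and 103 (adult) genes for FR averaged, 2 for insulin in FR adult males and for the interaction in adult females, and 1 each for insulin in FR and the interaction in P0 females, insulin in P21 AdLib males and the diet difference in the P0 to P21 change. Without a filter, FR averaged gave 96 genes at P0 and 2 at P21, and insulin in P21 AdLib males 1.

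For Mog from P0 to P21, the log2 difference changed sign in FR saline libraries (-0.014), males only (-0.18), with the stem block (-0.023) and, chosen after seeing the data, without P21 female AdLib saline replicate 7 (-0.024). For Opalin from P21 to adult it did so in females only (-0.021). Leaving out male FR saline replicate 3, or the 3 P21 libraries that stood apart, turned FR minus AdLib in saline P21 males for Cnp (-0.070 and -0.069) and male minus female at P21 for Ermn (-0.0047 and -0.0063, against 0.134 without female AdLib saline replicate 7), and without the 3 FR averaged at P21 called 2 genes. The cause was not tested. Of the values of members named in a comparison, 413 kept direction and call under alternatives, 8 lost the call, 2 gained it and 9 changed sign. Members not named there also changed sign in the P21 comparisons without these libraries. Low counts limit Mobp, Mal and Opalin at P0, where their folds rest on 5, 10 and 5 reads. The age comparisons cannot be told apart from the separate count tables.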
